A study of Homo sapiens with 4 samples.

Results

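MDM2, BTG2, CCNG1, SESN1, SESN2, PPM1D, TP53I3 and SFN are textbook p53 target genes, and none of them had a p53 ChIP-seq peak in the gene body or up to 10 kb away in either genotype. The 8 genes were selected on this measurement: known p53 targets were looked up in both deposited peak lists, and these had no near peak. They are 8 of 59679 annotated genes, and their missing peaks are therefore how they were chosen and not a finding. They are described here beside 18 target genes selected for the opposite, a peak inside or within 10 kb in both lists, of which CDKN1A is the best known.

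The peaks came from HCT116, an established human colorectal cancer cell line, grown as spheroids at passages 13 to 18 in spheroid medium that held EGF and bFGF (20 ng/ml of each). One genotype carried p53-R273H, a substitution in the DNA-contacting surface of p53 that is frequent in tumours, and the other, ctrl-19-7, was its wildtype control. The sources used here do not say how R273H was introduced, whether it replaced both alleles, or whether either line is a single clone. Chromatin fixed in 1% formaldehyde for 5 minutes was precipitated with DO-1, an antibody to the amino terminus of p53 that binds the wildtype and the mutant protein, and each genotype had 1 ChIP library and 1 input. With 1 ChIP library per genotype there is no replicate error, no difference between genotypes was tested, and every value below describes these libraries. The labels name no DNA-damaging agent or other p53-activating treatment for either genotype.

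The R273H list held 2008 peaks with deposited scores from 50.0 to 3204 (median 61.9), and the wildtype list held 2059 peaks with scores from 50.0 to 3106 (median 64.9). The scores are the authors' and no source used here states their scale, so a score was read only against its own list. Peaks of the lists overlapped by at least 1 bp, here called shared, for 440 R273H peaks (21.9%) and 437 wildtype peaks (21.2%). Peak numbers start above 1, and peaks with the 192 lower numbers of the R273H list and the 227 of the wildtype list were not analysed here; their positions are unknown. A gene without a peak below is therefore one without a peak in the lists as used here, and read depth is unknown.

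p53 is a transcription factor that binds DNA as a tetramer, and its response element is a pair of decameric half-sites, lying next to each other or separated by a short spacer. Its targets fall into groups that restrain p53 itself, halt the cell cycle, repair damage, adjust metabolism or trigger cell death. MDM2 is the classical negative feedback target, and its p53 response elements lie in the first intron, next to a second, p53-driven promoter. Response elements of other targets can lie in promoters, in introns or at a distance from the gene.

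The sequences that bear on this are the promoter windows of RefSeq (GRCh38.p14), which run from 250 bases before to 50 bases after each annotated start site. The 8 genes had 14 such windows, and no peak of either list overlapped any of them. Of all 35116 windows in the table, 0.0854% were overlapped by a R273H peak and 0.185% by a wildtype peak, so an empty promoter window was the usual state in these lists. The search for adjacent pairs, added after the data were seen, allowed 1 mismatch in each half-site but kept its core C and G. It would miss any element without that core, in MDM2 or elsewhere, so its counts are lower bounds. MDM2 was the only member with such a pair. The pair lay at chr12:68808923-68808942 on the plus strand, between 94 and 75 bases before an inner MDM2 start site and thus within the MDM2 gene span, downstream of its outer start sites, and 55 windows (0.157%) in the whole table held such a pair. SESN1 was the only member with a half-site without mismatch, at chr6:109009028-109009037 between 49 and 40 bases before its innermost start site. The pair in MDM2 and the half-site in SESN1 are shown with their flanks, beside the pair in DCP1B and the half-sites in AEN and RPS27L, target genes whose promoter windows were overlapped by peaks of both lists. All are written 5′ to 3′ along the gene's strand, with the matched letters in capitals.
MDM2, chr12:68808908-68808957, plus strand: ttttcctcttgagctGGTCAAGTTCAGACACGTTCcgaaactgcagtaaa
SESN1, chr6:109009013-109009052, minus strand: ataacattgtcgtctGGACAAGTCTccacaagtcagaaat
DCP1B, chr12:2004635-2004684, minus strand: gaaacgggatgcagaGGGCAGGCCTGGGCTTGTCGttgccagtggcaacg
AEN, chr15:88621291-88621330, plus strand: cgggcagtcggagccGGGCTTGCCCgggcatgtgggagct
RPS27L, chr15:63157512-63157551, minus strand: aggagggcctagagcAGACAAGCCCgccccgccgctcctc

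The MDM2 and DCP1B pairs each had 1 mismatch in each half-site, 2 in all, and differed in their peaks. The window of DCP1B, which encodes an mRNA decapping factor, was overlapped by a R273H peak scoring 94.1 and a wildtype peak scoring 299. These peaks lay 83 and 34 bp upstream of the DCP1B span, and both overlapped another gene, CACNA1C. The MDM2 window lay 1393 kb from the nearest R273H peak and 780 kb from the nearest wildtype peak. In the whole table, 36 windows had a best adjacent pair with 2 mismatches, 2 of them overlapping MDM2 windows. Of these 36, 2 were overlapped by a R273H peak and 2 by a wildtype peak. They were grouped by their letters alone, and whether p53 can bind them is not known here.

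Of the 6 windows with an adjacent pair without mismatch, 4 were overlapped by a R273H peak and 5 by a wildtype peak. The PURPL window had a wildtype peak only, and the LOC105376065 window had neither. With 1 mismatch in the adjacent pair, 1 of 13 windows was overlapped by a R273H peak and 2 by a wildtype peak. The DDB2 window, among these 13 and overlapped by a wildtype peak, also held a pair without mismatch at a spacer of 1 base. PTCHD4 and LNCTAM34A, the latter a long noncoding RNA gene next to the p53-regulated MIR34A locus, are 2 examples without mismatch that were chosen after their values were seen. Their pairs are shown here. Whether mismatches bear on the missing MDM2 peak was not tested.
PTCHD4, chr6:48111183-48111232, minus strand: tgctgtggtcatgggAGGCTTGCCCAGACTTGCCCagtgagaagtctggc
LNCTAM34A, chr1:9182129-9182178, plus strand: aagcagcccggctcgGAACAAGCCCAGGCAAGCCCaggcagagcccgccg

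The PTCHD4 window was overlapped by a R273H peak scoring 264 and a wildtype peak scoring 833, and the LNCTAM34A window by peaks scoring 1160 and 3100. No window of the 8 genes held a pair of half-sites without mismatch at any spacer from 0 to 13 bases, and neither did any of the 13 windows of the 12 target genes with peaks that the table holds. Only 10 windows (0.0285%) in the whole table held one. Of these 10, 4 were overlapped by a R273H peak and 7 by a wildtype peak.

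Single half-sites were counted as well, with no test. Of the 12 target genes with peaks, only 4 had a window overlapped by a R273H peak and 6 by a wildtype peak. The counts below therefore do not compare bound with unbound sequence. A half-site without mismatch stood in the windows of 1 of the 8 genes (SESN1), of 3 of 12 target genes with peaks (PLK2, AEN and RPS27L) and of 8.06% of all 27305 genes in the table. With 1 mismatch allowed, the counts were 4 of 8 (MDM2, SESN1, PPM1D and SFN), 9 of 12 and 50.1%. The tetramer CATG, the core of many p53 half-sites, was found in windows of 2 of 8 (MDM2 and SESN1), 4 of 12 and 60.6%; it reads the same on both strands and can lie inside a half-site match. The median GC content was 65.3% over the 14 windows of the 8 genes (range 54.3% to 75%), 67.3% over the 13 windows of target genes with peaks and 58.7% over all windows. A match describes the letters of a window only, and sequence outside these windows was not searched, since no genome sequence was used here.

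**Figure D1:**
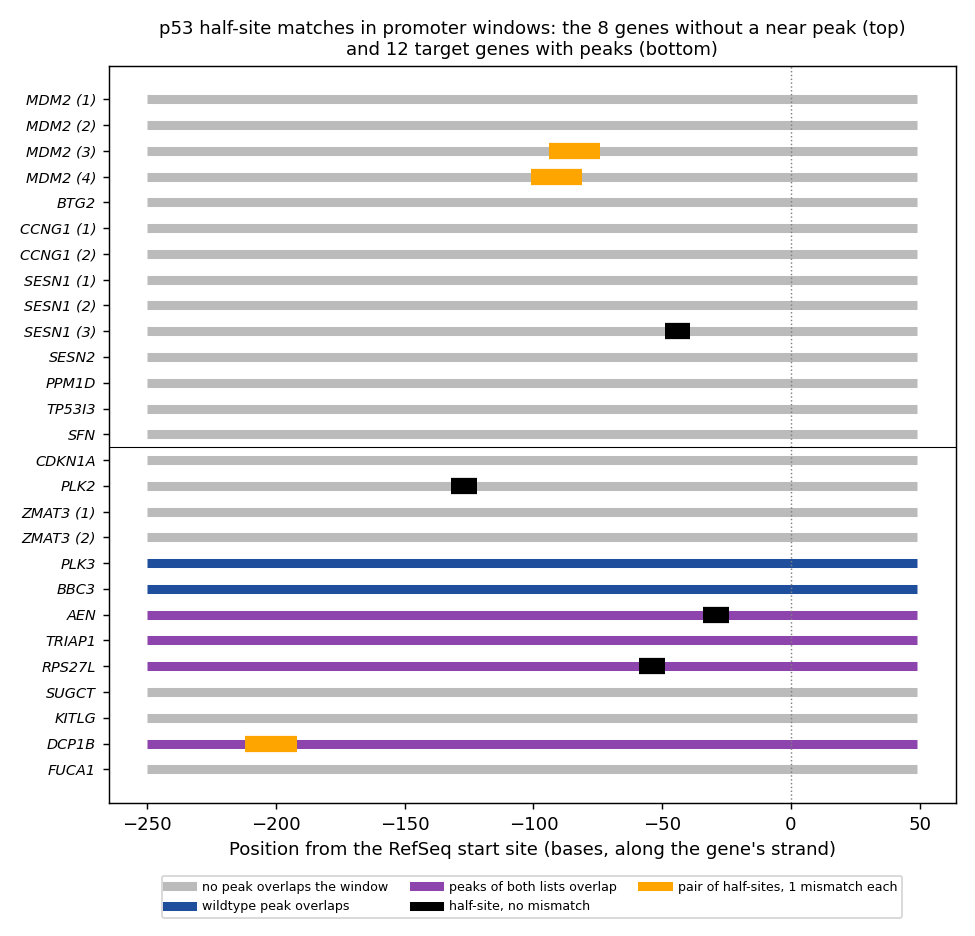
p53 half-site matches in the RefSeq promoter windows of the 8 genes without a near peak (top, 14 windows) and of 12 target genes with peaks (bottom, 13 windows). The x axis is the position in bases from the start site along the gene's strand; grey, blue and purple bars are windows with no overlapping peak, with a wildtype peak and with peaks of both lists, black marks are half-sites without mismatch and orange marks are adjacent pairs with 1 mismatch each. All 14 upper windows are grey by selection, and MDM2 and SESN1 hold the marks among them.

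With no near peak by selection, what remains to describe is where the nearest peaks lay. In the R273H list the nearest peak was between 303 and 2483 kb from the 8 genes (median 1198 kb), and in the wildtype list between 69.8 and 3053 kb (median 417 kb). Over 20037 protein-coding genes the medians were 896 kb and 512 kb. Of the protein-coding genes, 3.09% had a R273H peak and 4.83% a wildtype peak inside or within 10 kb (2.36% and 3.48% of all annotated genes). A gene without a near peak was thus the usual case. Within 100 kb, 0 of the 8 genes had a R273H peak against 10.6% of protein-coding genes, and 2 of 8 (SESN2 and SESN1) had a wildtype peak against 16.5%. Within 1 Mb the counts were 3 of 8 against 53.5% in the R273H list and 6 of 8 against 69.4% in the wildtype list. The selection left out every distance up to 10 kb, which raises the median of the 8.

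**Figure D2:**
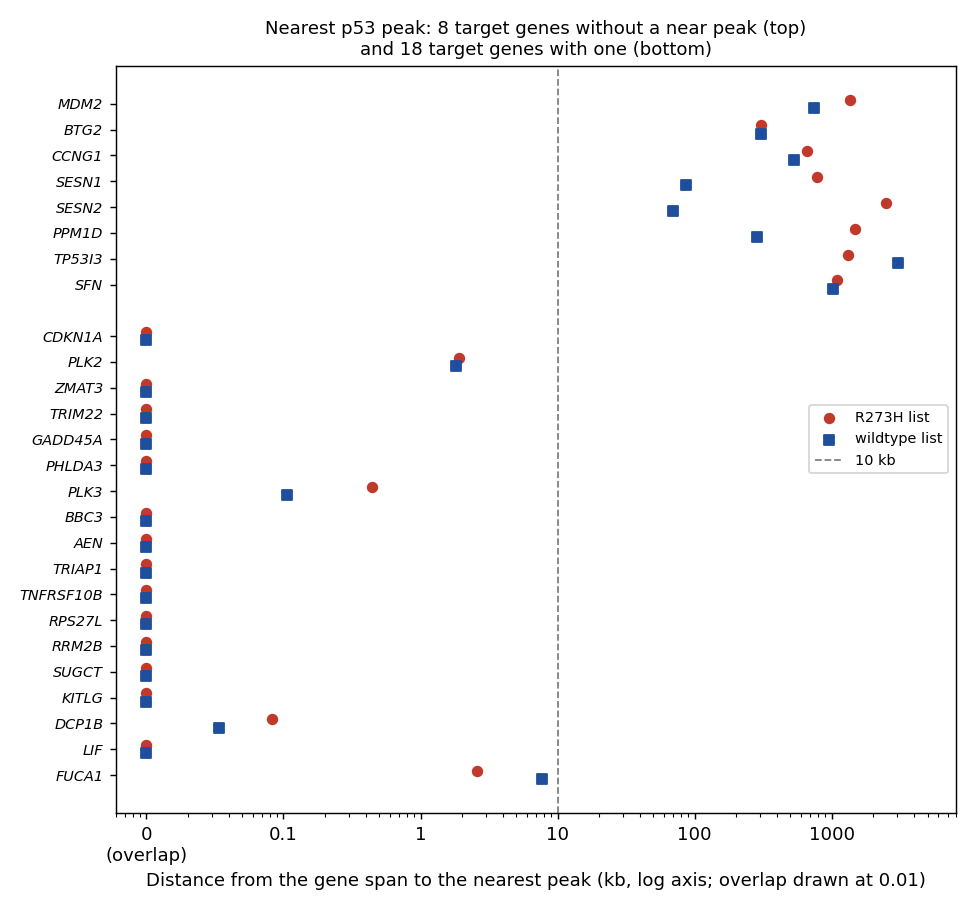
Distance in kb from the gene to the nearest peak (log axis, overlap drawn at 0.01) for the 8 genes without a near peak (top) and 18 target genes with one (bottom), R273H list as circles and wildtype list as squares. The dashed line is the 10 kb used to select both groups; the upper genes lie between 69.8 and 3053 kb.

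The feedback genes MDM2 and PPM1D restrain p53. MDM2 (chr12:68808172-68850686, plus strand, 42.5 kb) encodes the ubiquitin ligase that marks p53 for degradation. Its nearest R273H peak lay 1351 kb downstream at chr12:70201715-70202002, 0.964 kb from the noncoding gene LINC02821, with a score of 55.2 and rank 1457 of 2008. Its nearest wildtype peak lay 738 kb downstream at chr12:69589098-69589230, overlapping CCT2, a chaperonin subunit gene, with a score of 52.7 and rank 1744 of 2059. Both are low-scoring peaks of their lists, and neither was shared. The nearest peak scoring at least 100 was 9307 kb away in the R273H list, near the axon guidance gene NAV3, and 6327 kb away in the wildtype list, near the potassium channel gene KCNC2. Between flanking peaks MDM2 lay in 10.7 Mb without a R273H peak and 3.95 Mb without a wildtype peak.

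PPM1D (chr17:60600193-60666280, plus strand, 66.1 kb) encodes the phosphatase WIP1, which removes activating phosphates from p53 and from its upstream kinases. Its nearest R273H peak lay 1478 kb downstream at chr17:62143916-62144405, 3.28 kb from the pseudogene POLRMTP1, and was among the stronger of its list, with a score of 835 and rank 45. That peak was shared, and its wildtype partner scored 2032. The wildtype list also held a nearer peak, 285 kb upstream at chr17:60314918-60315052 in USP32, a deubiquitinase gene, with a score of 52.1 and rank 1823. Further wildtype peaks with scores of 56.3, 80.8 and 75.5 also lay nearer to PPM1D than the R273H peak. Another, at chr17:62143657-62143851 beside the shared site, scored 205 and was barely nearer (1477.38 against 1477.64 kb). Chromosome 17 had 1 R273H peak per 0.793 Mb and 1 wildtype peak per 0.778 Mb, the densest of the 6 chromosomes that carry the 8 genes.

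Of the cell cycle genes, BTG2 (chr1:203305519-203309602, plus strand, 4.08 kb), an antiproliferative adaptor of the mRNA deadenylation machinery, had nearest peaks in both lists at the same place. The R273H peak lay 303 kb upstream at chr1:203002557-203002724 with a score of 55.2 and rank 1460. The wildtype peak, at chr1:203002430-203002852, overlapped it, was also 303 kb away and scored 223 with rank 348. The gene nearest to both was the pseudogene MGAT4FP. BTG2 was the member with the nearest R273H peak, and 24.5% of protein-coding genes had one nearer still.

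CCNG1 (chr5:163437571-163457640, plus strand, 20.1 kb) encodes cyclin G1, which brings protein phosphatase 2A to MDM2. Its nearest R273H peak lay 662 kb downstream at chr5:164119996-164120154, with a score of 51.4 and rank 1826, 177 kb from LINC03000. This peak was shared and its wildtype partner scored 810. The nearest wildtype peak was another one, 531 kb upstream at chr5:162906095-162906685, with a score of 126 and rank 478, 99.1 kb from LOC105377699. Neither peak lay in a gene.

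SFN (chr1:26863149-26864456, plus strand, 1.31 kb) encodes 14-3-3 sigma, an epithelial protein that holds mitotic kinase complexes in the cytoplasm after DNA damage. Its nearest R273H peak lay 1087 kb upstream at chr1:25775965-25776032 in the mannosidase gene MAN1C1, with a score of 97.0 and rank 417. Its nearest wildtype peak lay 1029 kb upstream at chr1:25834268-25834454 in AUNIP, an aurora kinase A interactor gene, with a score of 55.9 and rank 1481. The peaks were about equally far from SFN and did not overlap.

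The sestrins are stress-induced inhibitors of mTORC1 signalling. SESN2 (chr1:28259518-28282491, plus strand, 22.97 kb) lies on the same chromosome arm as SFN and had the same MAN1C1 peak as its nearest R273H peak, 2483 kb upstream, the largest R273H distance of the 8. Its nearest wildtype peak was the closest of any member, 69.8 kb downstream at chr1:28352315-28352498, 16.4 kb from the Mediator subunit gene MED18, with a score of 63.6 and rank 1080. SESN2 and SFN share 1 stretch without peaks, 15.7 Mb long in the R273H list and 2.52 Mb in the wildtype list, so their distances are not separate observations.

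SESN1 (chr6:108984309-109094846, minus strand, 111 kb) had the highest-scoring nearest R273H peak of the 8. It lay 787 kb upstream at chr6:109882050-109882650, 56.6 kb from the phosphoinositide phosphatase gene FIG4, with a score of 1122 and rank 26, and was shared with a wildtype peak scoring 2030. The nearest wildtype peak lay 86.5 kb downstream at chr6:108897440-108897807 in ARMC2, with a score of 144 and rank 429. No R273H peak overlapped it.

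TP53I3 (chr2:24077433-24084834, minus strand, 7.40 kb) encodes the quinone oxidoreductase PIG3, tied to reactive oxygen and p53-dependent cell death. Its nearest R273H peak lay 1309 kb upstream at chr2:25394186-25394342 in DTNB, a dystrobrevin gene, with a score of 52.7 and rank 1707. Its nearest wildtype peak lay 3053 kb downstream at chr2:21024496-21024572 in APOB, an apolipoprotein gene, with a score of 58.1 and rank 1342. It was the single member with the nearer peak in the R273H list, and 94.0% of protein-coding genes had a nearer wildtype peak. It lay in 16.3 Mb without a R273H peak and 6.33 Mb without a wildtype peak, on a chromosome with 64 R273H and 130 wildtype peaks.

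**Figure D3:**
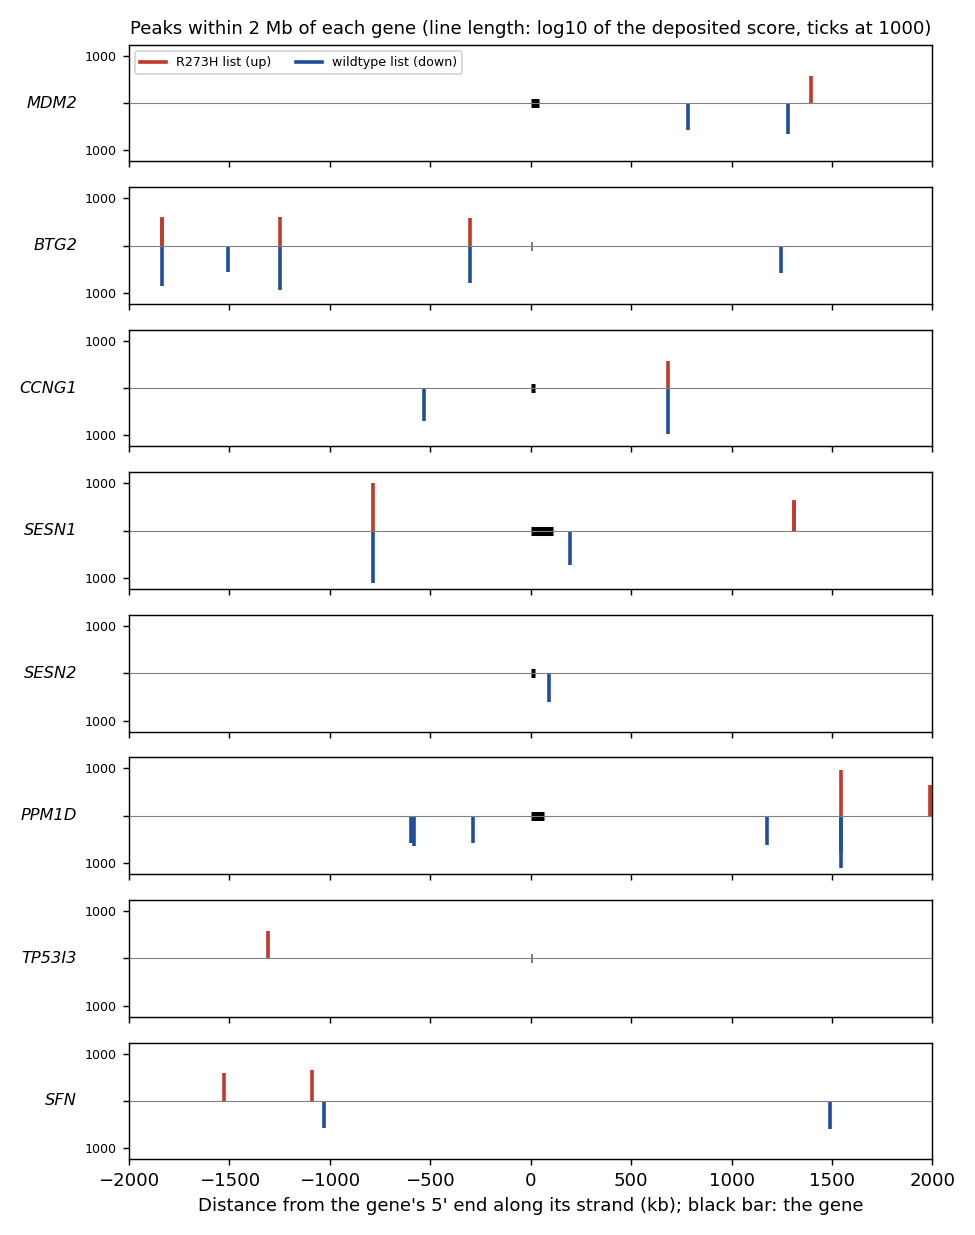
Peaks within 2 Mb of each of the 8 genes, placed by distance in kb from the gene's 5′ end along its strand; red lines upward are R273H peaks, blue lines downward are wildtype peaks, line length is log10 of the deposited score (lists scored separately) and the black bar is the gene. SESN2 has no R273H peak and TP53I3 no wildtype peak in the window, and BTG2, CCNG1, SESN1 and PPM1D have lines of both lists at the same place.

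Across the 8 genes the nearest wildtype peak was nearer than the nearest R273H peak in 7, and in 13827 of 20037 protein-coding genes (69.0%). At BTG2, 1 of the 7, the peaks were the same shared site and the wildtype peak was only the wider. The wildtype peak was nearer by more than 10 kb for 6 of the 8 and for 10577 protein-coding genes (52.8%). The nearest peak was shared for 4 of the 8 genes in the R273H list (BTG2, CCNG1, SESN1 and PPM1D) and for 1 in the wildtype list (BTG2). It scored at least 100 for 2 genes among R273H peaks (SESN1 and PPM1D) and for 3 among wildtype peaks (BTG2, CCNG1 and SESN1), where 19.5% and 27.5% of all peaks did. It scored below the list's median for 4 and 5 of the 8.

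Distances to strong or shared peaks divided the 8 genes, a split drawn from these same distances after they were seen. The median distance of the 8 genes to a peak scoring at least 100 was 6149 kb for R273H and 2376 kb for wildtype, against 2608 and 1525 kb over protein-coding genes. To a shared peak it was 5392 kb in both lists, against 2205 kb. These medians fall between a near and a far group of genes. A shared R273H peak lay 303 to 1478 kb from BTG2, CCNG1, SESN1 and PPM1D. It lay 9307 to 13569 kb from MDM2, SFN, SESN2 and TP53I3. For wildtype peaks scoring at least 100, the same groups lay at 86.5 to 1477 kb and 3274 to 14618 kb. For such R273H peaks they lay at 787 to 2990 kb and 9307 to 14618 kb. These measures are not independent. For MDM2, SESN1, PPM1D and TP53I3 the nearest shared R273H peak was also the nearest R273H peak scoring at least 100. SESN2 and SFN were measured to the same peaks. The stretch without peaks around the 8 genes had a median length of 7.67 Mb for R273H and 2.03 Mb for wildtype peaks. Over the protein-coding genes without a peak within 10 kb, the medians were 5.14 and 3.20 Mb. The members exceeded that median in 4 of 8 cases for R273H and in 2 of 8 for wildtype, and thus lay on both sides of it.

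**Figure D4:**
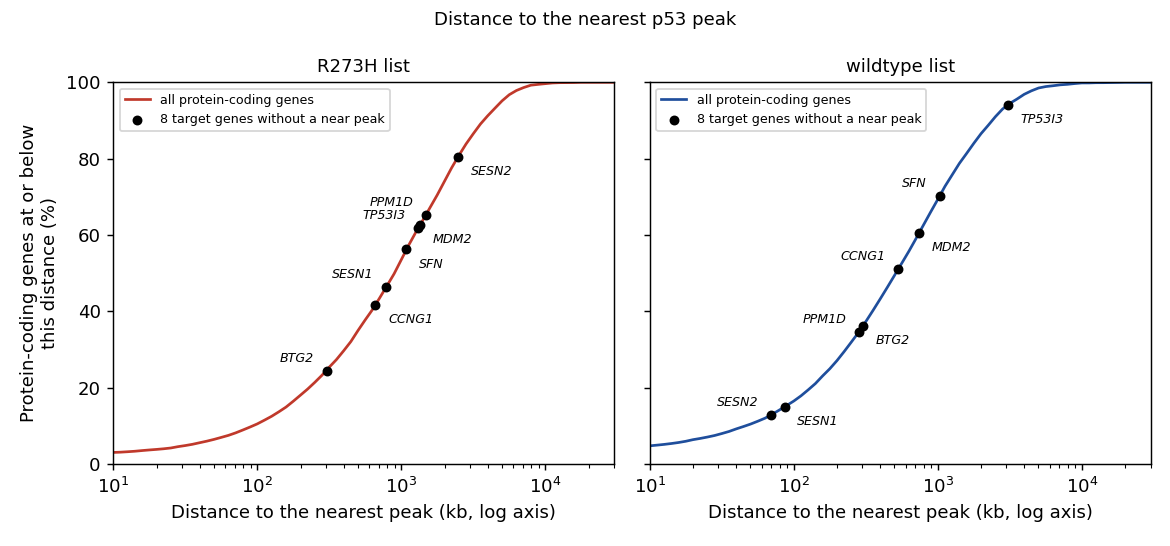
Share of protein-coding genes (y axis, %) whose nearest peak lies at or below a distance (x axis, kb, log scale) in the R273H list (left) and the wildtype list (right), with the 8 genes as points. The points run from 24.5% (BTG2) to 80.6% (SESN2) on the left and from 12.9% (SESN2) to 94.0% (TP53I3) on the right.

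The 18 target genes with peaks had them at or in the gene. A peak overlapped 14 of the 18 in each list. The nearest peak was shared for 17 of 18, where 21.9% of all R273H peaks and 21.2% of all wildtype peaks were shared. CDKN1A (chr6:36676463-36687332), which encodes the cyclin-dependent kinase inhibitor p21, had a R273H peak at chr6:36676091-36676811 scoring 1427, rank 16 of its list, and a wildtype peak at chr6:36676079-36676883 scoring 3106, rank 1. Several wildtype peaks, among them the LNCTAM34A peak, tied just below it at a score of 3100 and rank 2. The best R273H scores of the next genes were 746 at the kinase gene PLK2, 335 at ZMAT3, 264 at TRIM22, 73.8 at GADD45A, 67.7 at PHLDA3, 52.4 at PLK3, 245 at BBC3 (the cell death gene PUMA) and 521 at the exonuclease gene AEN. Their wildtype scores were 2135 at PLK2, 474 at ZMAT3, 615 at TRIM22, 283 at GADD45A, 378 at PHLDA3, 415 at PLK3, 1212 at BBC3 and 1210 at AEN. The best score was at least 100 for 11 of the 18 in the R273H list and for 17 in the wildtype list. Of all peaks, 19.5% and 27.5% scored so. A score of 100 thus falls at a different place in each list, and these counts do not compare binding between genotypes. These genes were chosen for having near peaks in both lists, so the contrast in distance with the 8 follows from the selection. That rule also favours overlapped genes and shared peaks, so these counts are not findings either.

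None of the 8 lay close to the 10 kb limit. The last target inside it was FUCA1, a lysosomal fucosidase gene, at 2.56 kb from its R273H peak and 7.66 kb from its wildtype peak. The first outside it was GDF15, a stress cytokine gene, at 11.8 kb in the R273H list and 11.9 kb in the wildtype list, with a shared peak scoring 820 and 2015. The nearest of the 8 were BTG2 at 303 kb in the R273H list and SESN2 at 69.8 kb in the wildtype list.

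Other p53 target genes were read from 3 lists of 56 genes in all, which include the 18. A R273H peak lay inside or within 10 kb of 23 and a wildtype peak of 25, 19 had both and 27 had neither, where 2.36% and 3.48% of all annotated genes had a near peak. The lists were drawn up with earlier results in view. Of 16 arrest and feedback genes, 9 had a R273H peak, 9 a wildtype peak and 6 neither. Besides genes of the 18, PTP4A1, a phosphatase gene, had a shared peak (R273H score 69.7, wildtype score 629). NINJ1, a membrane rupture protein gene, had a R273H peak only (59.3), and TP53INP1, an autophagy and stress gene, had a wildtype peak only (88.1). Of 17 apoptosis genes, 4 had a R273H peak, 6 a wildtype peak and 11 neither; BAX, the mitochondrial pore protein gene, had a wildtype peak scoring 220 and the decoy receptor gene TNFRSF10C one scoring 60.6.

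Of 23 repair and metabolism genes, 10 had a R273H peak, 10 a wildtype peak and 10 neither. ACER2 (94.3), EPHA2 (63.4) and ASTN2 (59.0) had a R273H peak without a wildtype peak. The damage recognition gene DDB2 (253), SLC12A4 (87.5) and the glutathione peroxidase gene GPX1 (104) had a wildtype peak without a R273H peak. The DDB2 peak covered a pair of half-sites without mismatch and with a spacer of 1 base, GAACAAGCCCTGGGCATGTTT at chr11:47214979-47214999. Whether presence in 1 list differs between genotypes was not tested.

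The 27 other targets without a peak include genes as far from one as the 8. By distance in both lists, the 5 most like the median of the 8 were SIVA1 (1509 kb in the R273H list, 501 kb in the wildtype list), PML (829 and 433 kb), BTG1 (1264 and 237 kb), BID (865 and 697 kb) and XPC (956 and 200.1 kb). Likeness was the Euclidean distance between the log10 distances over the 2 lists, and it ran from 0.128 for SIVA1 to 0.333 for XPC.

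Relatives of the 8 genes were read the same way. Of 34 genes in 7 families, 0 had a R273H peak and 3 a wildtype peak inside or within 10 kb, against 3.09% and 4.83% of protein-coding genes. The 3 were MDM4, which encodes the MDM2 partner that blocks p53's activation domain (score 55.2, rank 1552), BTG3 (54.7, rank 1583) and the phosphatase gene PPM1B (50.3, rank 2008). All 3 are low-scoring peaks of the wildtype list. The third sestrin gene, SESN3, lay 1358 kb from a R273H peak and 250 kb from a wildtype peak, and 0 of 6 other 14-3-3 genes had a near peak. CCNG2, the cyclin G2 gene, lay 163 kb in both lists from a shared peak scoring 490 and 1504.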

How the data were processed

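p53 ChIP-seq was made from 2 ChIP and 2 input libraries of HCT116 spheroids, 1 of each per genotype. The authors deposited 2 peak lists with position and a score per peak. The submitters' processing notes name hg38 as the build and, as tools, HOMER, MACS and Bowtie 1.2.2. Not given in the sources used here were the tools' roles, the MACS version, the threshold, the use of inputs, pooling and the scale of the score. A list was given to the ChIP sample whose title it carries, although the labels' descriptions name the R273H list also for the wildtype ChIP sample and the wildtype list for the inputs. Peaks with numbers below those listed were not analysed here.

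Distances ran edge to edge from RefSeq gene spans (GRCh38.p14) to peaks with Python 3.11.15, pandas 2.3.3, numpy 2.4.6 and matplotlib 3.10.9; distance and half-site code was tested on simulated data. A peak within 10 kb counted as near, upstream and downstream follow the gene's strand, and a tied rank is the best of the tie. A p53 half-site was the usual decamer, searched on both strands, with no mismatch allowed at the core C and G; pairs were sought with spacers of 0 to 13 bases. The members and gene lists were chosen with earlier results of these data known. Named were the 8 members, CDKN1A and the next 8 genes of its list, every listed gene with a near peak, the 5 target genes most like the members, and the gene nearest to each member's nearest peak. One of the gene lists is not reported here. The promoter table matched all 8 members and 12 of the 18 target genes with peaks. Alternatives were other distances, peaks scoring at least 100, protein-coding genes only, a reciprocal overlap of 50% and 1 mismatch in a half-site; the search for pairs was added after the data were seen. No paired analysis or test was possible with 1 ChIP library per genotype.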

Additional observations from a re-analysis of the deposited data

How the results depend on the processing

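Each genotype had 1 ChIP library of unknown depth, so a missing peak cannot be told apart from one below the authors' threshold or among the 192 (R273H) and 227 (wildtype) lower-numbered peaks not analysed here, and no replicate could be left out. No paired analysis was possible because no result came from a test. For the 8 genes, narrower windows or stricter scores had to give 0, since they were selected for 0 within 10 kb. Within 50 kb 0 of 8 had a peak in either list, and within 100 kb 0 had a R273H peak and 2 a wildtype peak. Annotated genes with a R273H peak went from 1407 to 738 (inside the gene), 910 (2 kb), 3675 (50 kb), 6015 (100 kb), 620 (protein-coding genes) and 485 (scores of at least 100). For the wildtype list they went from 2076 to 1113, 1367, 5276, 8465, 967 and 763. With scores of at least 100, R273H peaks were near 11 rather than 18 of the target genes with peaks, and the members' median distances rose from 1198 to 6149 kb (R273H) and from 417 to 2376 kb (wildtype). With a reciprocal overlap of 50%, the nearest peak was shared for 2 rather than 4 members in the R273H list and 0 rather than 1 in the wildtype list. Allowing 1 mismatch raised the genes with a half-site from 1 to 4 of 8 members and from 3 to 9 of 12 target genes with peaks. The stricter or wider criterion itself sets these moves.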
